A study of Mus musculus with 10 samples.

Results

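The cAMP response element (CRE) is the palindrome TGACGTCA, and its first 5 bases, TGACG, form a half-site. The 8-mers described here hold that half-site with its continuation left open or changed. They are all 8-mers, merged with their reverse complements, in which TGACG stands at the 3′ end or is followed by A or G, on either strand, and in which TGACGT does not occur. The rule itself uses sequence alone and no measured value, but it was chosen with earlier results of these data known. It gave 160 of 32896 8-mers, of which 64 end in the half-site, 48 continue with A and 48 continue with G. They are called terminal, A-type and G-type 8-mers below.

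Binding was measured on 10 protein binding microarrays, glass slides that carry short duplex DNA probes in a DeBruijn design, in which every short sequence recurs in many contexts. The proteins were GST-tagged bZIP DNA-binding domains of mouse origin, produced from plasmids in a cell-free transcription and translation kit and read in the Cy5 channel. Each of 5 groups had 2 arrays. CEBPB(V285A) and CREB1(A297V) were each measured on methylated and on unmethylated arrays, and wild-type CREB1 on unmethylated arrays. Methylated arrays had been treated for 3 h with M.SssI, an enzyme that methylates the cytosine of CG. Wild-type CEBPB and CREB1 on methylated DNA were not analysed here. Only isolated domains were tested, without the rest of the protein and without partners from a cell. The labels do not say that the 2 arrays of a group came from separate protein preparations, so p-values measure the spread between these arrays, which may be technical.

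bZIP proteins bind DNA as dimers, with the basic region of each monomer lying over one half-site. CREB1 is the transcription factor that answers cAMP signalling through the CRE, and CRE half-sites standing alone also occur in promoters that it regulates. CEBPB, a C/EBP factor of liver, fat and myeloid cells, recognises a different palindrome, and V285A and A297V exchange valine and alanine at a place in the basic region where both families differ. The half-site contains a CG, so M.SssI can methylate each of the 8-mers described here, and methylation of the CRE is known to weaken CREB1 binding.

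The sequences on which the results turn are given 5′ to 3′ with the half-site in capitals and all other bases in lower case. The first 4 end in the half-site and were the strongest for CREB1 or CEBPB(V285A) on unmethylated DNA, the next 4 are the A-type and G-type counterparts of the CRE and of its variant ending in AA, and the last 2 differed in opposite directions between CEBPB(V285A) and CREB1.
Terminal 8-mer with tga before the half-site: tgaTGACG
Terminal 8-mer with cga before the half-site: cgaTGACG
Terminal 8-mer with cta before the half-site: ctaTGACG
Terminal 8-mer with gcg before the half-site: gcgTGACG
A-type 8-mer with the CRE ending: TGACGaca
G-type 8-mer with the CRE ending: TGACGgca
A-type 8-mer ending in AA: TGACGaaa
G-type 8-mer ending in AA: TGACGgaa
Terminal 8-mer with ggc before the half-site: ggcTGACG
G-type 8-mer with tc before the half-site: tcTGACGg
Read from the other strand, TGACGaaa is tttCGTCA and TGACGaca is tgtCGTCA, with the complement of the half-site in capitals.

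Values are Z-scores. The Z-score of an 8-mer is the log2 median signal of the probes that hold it, after subtraction of the local median over the slide, centred on the median of all 8-mers of that array and divided by their robust SD (taken from the median absolute deviation). A Z of 0 is therefore a typical 8-mer. A protein is called methylated or unmethylated below after the DNA on its arrays. Each of the 160 8-mers was held by 32 to 38 probes, and a neighbouring pair such as tgaTGACG and an A-type 8-mer can rest on the same probes: 2239 probes account for all 5475 pairings of a probe with one of the 160. They are thus not independent of each other. Median signal over background ranged from 1.79 to 5.10 per array, and signals spread least on the arrays of CREB1(A297V) without methylation, their strongest 8-mer lying 2.79 and 2.68 log2 units above the array median. Replicate arrays correlated over all 8-mers at 0.973 and 0.966 on methylated DNA (CEBPB(V285A), then CREB1(A297V)), at 0.969 and 0.872 for the same proteins on unmethylated DNA, and at 0.935 for CREB1. The number of arrays limits the precision.

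CEBPB(V285A) and CREB1 gave most of these 8-mers a Z of 3 or more on unmethylated DNA, and CREB1(A297V) reached that level on fewer of them, on methylated and on unmethylated DNA. A mean Z of at least 3 was reached by 91 of the 160 with methylated CEBPB(V285A), 47 with methylated CREB1(A297V), 111 with unmethylated CEBPB(V285A), 17 with unmethylated CREB1(A297V) and 112 with CREB1. Over all 8-mers that level was reached by 3.28%, 2.90%, 3.50%, 1.68% and 2.69%, in the same order. The median Z of the 160 was 3.45 with methylated CEBPB(V285A) and 1.79 with methylated CREB1(A297V). On unmethylated DNA it was 5.33 for CEBPB(V285A), 1.08 for CREB1(A297V) and 4.66 for CREB1. In signal, the median 8-mer of the 160 lay at 2.12 times the array median with unmethylated CEBPB(V285A), 1.09 times with unmethylated CREB1(A297V) and 1.66 times with CREB1.

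The strongest of the 160 for CREB1 and for CEBPB(V285A) was tgaTGACG. Its Z-scores were 8.71 and 8.63 on the methylated CEBPB(V285A) arrays and 9.37 and 7.63 on the methylated CREB1(A297V) arrays. They were 17.5 and 13.6 with unmethylated CEBPB(V285A), 3.11 and 5.92 with unmethylated CREB1(A297V), and 15.5 and 18.8 with CREB1. Its rank among all 8-mers was 74, 99, 23, 161 and 18 in these 5 groups. The CEBPB(V285A) and CREB1 arrays overlapped on unmethylated DNA, and both CREB1(A297V) arrays lay below all 4 of them. On unmethylated DNA cgaTGACG came next for CEBPB(V285A) and for CREB1. Its Z-scores were 16.3 and 12.8 with CEBPB(V285A), 2.98 and 6.54 with CREB1(A297V) and 13.4 and 16.6 with CREB1. For ctaTGACG the values were 13.2 and 11.8, 2.77 and 4.05, and 10.9 and 13.6 in that order of proteins, and for gcgTGACG 13.9 and 11.6, 0.636 and 4.55, and 9.82 and 13.9. In all 4 the base before the half-site is a purine. At the other end, ccTGACGg lay near or below the typical 8-mer on every array, at -0.0647 and 0.191 with unmethylated CEBPB(V285A), -1.60 and -1.33 with unmethylated CREB1(A297V), and -0.626 and 0.0612 with CREB1. The lowest 8-mer for CEBPB(V285A) was tTGACGga, at -0.384 and -0.326 on methylated and 0.110 and -0.0767 on unmethylated arrays. The lowest for methylated CREB1(A297V) was tTGACGgg, at -0.930 and -1.47.

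The base after the half-site ordered the levels. With unmethylated CEBPB(V285A) the median Z was 7.16 for terminal, 5.65 for A-type and 2.99 for G-type 8-mers, against 12.6 for the 48 8-mers in which T follows and 8.52 for the 48 in which C follows. With CREB1 it was 6.58, 4.89 and 3.23, against 14.2 with T and 7.62 with C. With unmethylated CREB1(A297V) it was 1.58, 1.62 and 0.311, against 3.65 with T and 1.28 with C. On methylated DNA the medians were 4.55, 4.03 and 1.90 for CEBPB(V285A), against 8.53 with T and 4.71 with C. For methylated CREB1(A297V) they were 2.34, 2.16 and 0.822, against 5.58 with T and 2.17 with C. No G-type 8-mer reached a mean Z of 3 with CREB1(A297V) on either kind of DNA, and the highest were 2.64 on methylated and 2.63 on unmethylated arrays. These are descriptions without a test.

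The bases after the half-site were also compared within a fixed flank. The same 48 flanks exist with A, G, C and T after the half-site, so that 8-mers differing at a single base can be set side by side. The A-type 8-mer lay above the G-type one with the same flank in 45 of 48 flanks with methylated CEBPB(V285A), 48 with methylated CREB1(A297V), 48 with unmethylated CEBPB(V285A), 47 with unmethylated CREB1(A297V) and 45 with CREB1. The median difference between A-type and G-type was 1.84, 1.86, 1.88, 1.13 and 1.73 in these groups. The A-type 8-mer lay below its counterpart with T in 48, 47, 48, 47 and 48 of 48 flanks. The 8-mer with C lay above the A-type one in 34, 18, 40, 19 and 44 flanks. In most flanks CEBPB(V285A) and CREB1 thus gave less signal with A than with C. For CREB1(A297V) the count was 22 and 15 on its methylated arrays and 14 and 25 on its unmethylated arrays, so C and A had no order common to all arrays. The difference between proteins in this count was not tested, and neighbouring flanks share probes.

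The terminal 8-mers leave the next base open, and their level is a mixture over what follows in the probe. Each was split by the next base into sets of 8 to 11 probes. With T next, the median Z over the 64 was 8.37 with methylated CEBPB(V285A), 5.09 with methylated CREB1(A297V), 12.6 and 3.87 for these proteins on unmethylated DNA, and 13.4 for CREB1. With C next it was 4.32 and 2.20 on methylated DNA, 9.36 for unmethylated CEBPB(V285A) and 8.48 for CREB1, and the unmethylated CREB1(A297V) arrays gave 0.798 and 2.11. In the order of 5 groups used for T, it was with A next 3.91, 2.31, 5.53, 1.35 and 5.66, and with G next 2.06, 0.853, 3.14, 0.176 and 3.30. Probes with T next restore TGACGT, so the terminal level holds a share of fuller CRE sites. Without the 572 probes that hold TGACGT, the median of the terminal 8-mers was 3.55, 1.68, 5.51, 0.923 and 5.38, against 4.55, 2.34, 7.16, 1.58 and 6.58 with all probes. For tgaTGACG itself the CREB1 arrays gave 24.6 and 32.8 over the 9 probes with T next, 16.1 and 20.0 with C, 12.3 and 15.5 with A and 9.95 and 11.1 with G. The unmethylated CEBPB(V285A) arrays gave 21.4 and 19.8 with T, 18.2 and 14.0 with C, 15 and 13.4 with A and 11.6 and 8.82 with G. The unmethylated CREB1(A297V) arrays gave 8.64 and 15.9 with T, 2.66 and 5.20 with C, 4.13 and 8.88 with A, and 1.75 and 2.35 with G. Even with G next, tgaTGACG stayed well above a typical 8-mer on the CEBPB(V285A) and CREB1 arrays.

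Single probes show the same sequences in their surroundings. For tgaTGACG and cgaTGACG the probe with the highest CREB1 signal is given with T next and with another base next, over its whole variable region of 35 bases, read as the reverse complement of the printed array sequence, with the half-site in capitals.
Probe with tgaTGACG and T next: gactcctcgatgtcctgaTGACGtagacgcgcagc
Probe with tgaTGACG and C next: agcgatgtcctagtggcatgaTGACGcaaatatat
Probe with cgaTGACG and T next: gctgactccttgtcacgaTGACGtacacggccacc
Probe with cgaTGACG and C next: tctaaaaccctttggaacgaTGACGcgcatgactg
The first gave 36.1 and 21.6 times the array's median signal with unmethylated CEBPB(V285A), 4.13 and 5.37 times with unmethylated CREB1(A297V), and 43.1 and at least 43.2 times with CREB1, since the spot stood at the top of the scale, 65528, on CREB1 array 2. The probe with C next gave 46.9 and 37.8 times with CEBPB(V285A), 5.27 and 5.72 times with CREB1(A297V) and 16.5 and 18.2 times with CREB1. For cgaTGACG with C next the values were 28.9 and 20.7, 1.75 and 2.16, and 15 and 19.9 times in the same order of proteins. They were 39.6 and 20.6, 2.80 and 3.09, and 23.0 and 26.5 times with T next. Each is a single spot chosen for its CREB1 signal, so these values carry no comparison between proteins.

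The base before the half-site also ordered the levels. In 128 of the 160 the 8-mer fixes that base, and it is A or G in 64 and C or T in the other 64. With A or G there, the median Z was 6.00 with methylated CEBPB(V285A), 3.56 with methylated CREB1(A297V), 8.58 and 2.33 for these proteins on unmethylated DNA, and 8.59 for CREB1. With C or T it was 1.81, 1.06, 2.61, 0.288 and 2.39. All 64 with a purine before the half-site had a mean Z of at least 3 with unmethylated CEBPB(V285A) and with CREB1, against 26 and 23 of the 64 with a pyrimidine. With unmethylated CREB1(A297V) 15 of the 64 with a purine reached it and none with a pyrimidine, and on methylated DNA 42 and none did. Among terminal 8-mers the medians with A, G, C and T before the half-site were 9.77, 9.77, 5.06 and 2.53 for unmethylated CEBPB(V285A), 2.78, 2.28, 0.474 and 0.461 for unmethylated CREB1(A297V), and 9.56, 8.98, 3.95 and 2.69 for CREB1. In A-type 8-mers the medians with C and T were 4.17 and 2.52, 0.995 and 0.339, and 3.23 and 2.13 in the same order of proteins, so C lay above T for all 3. Differences between proteins in this respect were not tested. The medians spanned a narrower range one base further out: with A, C, G and T as the second base before, the terminal medians were 6.98, 5.43, 9.27 and 7.36 for unmethylated CEBPB(V285A) and 6.76, 4.23, 7.28 and 7.63 for CREB1.

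According to its title, the study was concerned with how alike CEBPB(V285A) and CREB1 are in their binding. On these 8-mers few differences passed the test. By limma, 6 were higher and 2 lower with CEBPB(V285A) than with CREB1 at an adjusted p below 0.05 (Benjamini-Hochberg over all 8-mers), which is 5% of the 160, against 6.20% of all 8-mers, 3.67% higher and 2.53% lower. The median difference was 0.10 and the extremes were -2.06 and 3.21. The 2 arrays of both proteins did not overlap in 25 8-mers that were higher and 14 that were lower with CEBPB(V285A), against 26.7% and 24.9% of all 8-mers. Both shares of the 160 lie below those of all 8-mers. The 2 arrays of a group also lay further apart on the 160, which makes overlap likelier. Their median SD was 0.504 with CEBPB(V285A) and 1.13 with CREB1, against 0.163 and 0.223 over all 8-mers. The part of this spread in the shares was not tested, so they do not show that both proteins were more alike here.

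The 3 called 8-mers with the highest difference all have C before the half-site, but so does tcTGACGg, 1 of the 2 called lower. The Z of ggcTGACG was 5.89 and 5.04 with CEBPB(V285A), against 1.15 and 3.37 with CREB1, a difference of 3.21 (SE 0.527, adjusted p = 0.00173). That of cgcTGACG was 9.27 and 8.75 with CEBPB(V285A), against 5.74 and 7.40 with CREB1, a difference of 2.44 (SE 0.607, adjusted p = 0.0229). For gcTGACGa it was 6.12 and 5.44, against 3.16 and 3.88 (difference 2.25, SE 0.438, adjusted p = 0.00554). In each the arrays of both proteins did not overlap. The 2 lower ones were TGACGata, at 3.45 and 3.01 with CEBPB(V285A) against 4.15 and 5.83 with CREB1 (difference -1.76, SE 0.517, adjusted p = 0.0492), and tcTGACGg, at 1.14 and 1.03 against 2.07 and 2.70 (difference -1.30, SE 0.347, adjusted p = 0.0325). Each of the 8 calls was lost when some single array was left out, and without array 1 or 2 of unmethylated CEBPB(V285A) 0 and 2 calls were made. Without array 1 of CREB1 there were 2 higher and 13 lower calls, and without its array 2 there were 17 higher and 0 lower.

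The balance between both proteins also depended on the scale. In Z-scores 88 of the 160 were above and 72 below CREB1, while in log2 signal over the array median 144 were above and 16 below. Calls on that log2 scale were 70 higher and 0 lower. They were 23 higher and 0 lower with the authors' deposited Z-scores, and 0 higher and 48 lower after normexp background correction. The unmethylated CEBPB(V285A) arrays carry another array identifier than those of CREB1 and CREB1(A297V), so identifier and protein cannot be told apart where CEBPB(V285A) is compared on unmethylated DNA. No general direction between CEBPB(V285A) and CREB1 is therefore given here.

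CREB1(A297V) bound the 8-mers less than CREB1 did. On unmethylated DNA 157 of the 160 were lower and 0 higher by limma, against 10.8% lower among all 8-mers, and all 160 differences were below 0 with a median of -3.64. For 158 of the 160 both CREB1(A297V) arrays lay below both CREB1 arrays, against 25.5% of all 8-mers. The difference was -12.60 for tgaTGACG (SE 1.97, adjusted p = 0.000244), -10.23 for cgaTGACG (SE 1.76, adjusted p = 0.000577) and -10.11 for ccgTGACG (SE 1.19, adjusted p = 2.54e-05). The Z of ccgTGACG was 0.738 and 3.33 with CREB1(A297V), against 10.6 and 13.7 with CREB1. In signal, tgaTGACG lay at 1.47 times the array median with CREB1(A297V), against 6.39 times with CREB1. The 8-mers with T after the half-site were called in 46 of 48 cases, so 8-mers with the unaltered next base were lower too. Of the 157 calls, 128 held whichever single array was left out.

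Only 3 of the 160 did not pass, all of them A-type, and they are named after their values were seen. TGACGaaa gave 7.03 and 9.94 with CREB1(A297V), against 7.75 and 9.54 with CREB1 (difference -0.16, SE 1.54, adjusted p = 0.958). TGACGaca gave 5.47 and 7.16, against 6.95 and 7.88 (difference -1.10, SE 0.972, adjusted p = 0.468). The weakly bound tTGACGaa gave 1.33 and 1.78, against 1.97 and 2.56. The interval around the difference of TGACGaaa is wide, so equality is not shown. With quantile normalization both TGACGaaa and TGACGaca were called higher with CREB1(A297V), by 5.70 and 2.96.

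CEBPB(V285A) likewise gave the 8-mers higher Z-scores than CREB1(A297V) on unmethylated DNA, in a comparison that shares the CREB1(A297V) arrays with the previous one. By limma 153 of the 160 were higher and 0 lower, against 14.1% higher among all 8-mers, with a median difference of 3.97. Both CEBPB(V285A) arrays lay above both CREB1(A297V) arrays in 157 8-mers and below them in 0, against 30.7% and 29.9% of all 8-mers. The Z of ccgTGACG was 13.5 and 10.9 with CEBPB(V285A), against 0.738 and 3.33 with CREB1(A297V), a difference of 10.16 (SE 1.19, adjusted p = 1.3e-05). The difference was 11.05 for tgaTGACG (SE 1.97, adjusted p = 0.000504) and 10.15 for gcgTGACG (SE 1.42, adjusted p = 5.7e-05). The 7 that were not called include TGACGaaa, at 9.86 and 7.48 against 7.03 and 9.94, and TGACGaca, at 6.67 and 7.13 against 5.47 and 7.16. Their differences were 0.19 (SE 1.54, adjusted p = 0.945) and 0.59 (SE 0.972, adjusted p = 0.696), and with quantile normalization they were called lower with CEBPB(V285A), by -6.74 and -4.27. Of the 153 calls, 129 held whichever single array was left out.

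TGACGaaa and TGACGaca were the highest of the 160 for CREB1(A297V). On unmethylated DNA they ranked 146 and 226 among all 8-mers with CEBPB(V285A), 18 and 56 with CREB1(A297V), and 106 and 150 with CREB1. The G-type counterparts did not share this level: TGACGgaa gave 1.16 and 2.24 and TGACGgca gave -0.476 and 0.535 with unmethylated CREB1(A297V). With CREB1 the G-type pair gave 4.53 and 4.54, and 2.52 and 3.90. The forms with T, TGACGtaa and TGACGtca, averaged 24.3 and 23.2 with unmethylated CEBPB(V285A), 18.5 and 14.5 with CREB1(A297V), and 21.2 and 30.8 with CREB1. Substitution of A for T in the AA-ending form thus left a Z of 8.67 ± 1.68 with CEBPB(V285A), 8.48 ± 2.05 with CREB1(A297V) and 8.64 ± 1.27 with CREB1 (SD, n = 2 each), values that lie within their spread. This likeness holds on the Z scale only. In signal TGACGaaa lay at 3.40, 2.10 and 2.55 times the array median in the same order, and equality is not shown. The form with C, TGACGcaa, averaged 17.1 with CEBPB(V285A), 5.86 with CREB1(A297V) and 12.3 with CREB1.

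With CEBPB(V285A), methylated DNA gave lower Z-scores than unmethylated DNA on many of these 8-mers. By limma 50 of the 160 were lower and 0 higher, against 3.73% lower and 3.84% higher among all 8-mers, and the median difference was -1.54. The drop was not particular to them. With T after the half-site 23 of 48 were called lower (median difference -4.48), and with C 34 of 48 (median -3.03). Of the 50, 28 were terminal, 9 A-type and 13 G-type. Both methylated arrays lay below both unmethylated ones in 136 8-mers and above them in 5, against 31.1% and 32.1% of all 8-mers. The Z of tgaTGACG was 8.71 and 8.63 on methylated DNA, against 17.5 and 13.6 on unmethylated DNA (difference -6.89, SE 1.97, adjusted p = 0.0397). That of ccgTGACG was 6.40 and 5.24, against 13.5 and 10.9 (difference -6.37, SE 1.19, adjusted p = 0.00475), and that of cgaTGACG 8.95 and 8.09, against 16.3 and 12.8 (difference -6.03, SE 1.76, adjusted p = 0.0432). In signal, tgaTGACG lay at 4.74 times the array median on methylated and 8.97 times on unmethylated DNA.

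A group left with 1 array is tested with less precision, so a fall in the count does not by itself single out an array. That count depended on which array was left out. It was 4 without unmethylated CEBPB(V285A) array 1, 29 without its array 2, 5 without methylated array 1 and 9 without methylated array 2. The 4 calls that held whichever array was left out are named after their values were seen. They were cacTGACG, at 1.73 and 1.85 on methylated against 6.96 and 6.30 on unmethylated DNA, cgcTGACG, at 3.61 and 3.83 against 9.27 and 8.75, tgcTGACG, at 4.23 and 4.52 against 10.5 and 9.58, and TGACGgtg, at 1.52 and 1.64 against 5.68 and 4.74. The first 3 have C before the half-site, and in all 4 the arrays did not overlap. The 12 8-mers with a further CG outside the half-site had a median difference of -3.93, against -1.37 for the 148 with a single CG. The 12 also had the higher level on unmethylated DNA, at a median of 9.57 against 4.94, and the part of that level in the difference was not tested. The methylated and unmethylated arrays carry different array identifiers among the deposited tables, for both proteins, so the identifier and methylation cannot be told apart. In log2 signal 118 of the 160 were lower and 42 higher on methylated DNA, against 150 and 10 in Z-scores, and calls on that scale were 48 lower and 9 higher.

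With CREB1(A297V), methylated DNA gave higher Z-scores on some of these 8-mers. By limma 18 of the 160 were higher and 0 lower, which is 11.2%, against 10.4% higher among all 8-mers, so the share was close to that of all 8-mers. The 18 comprised 14 A-type, 3 terminal and 1 G-type 8-mer. Both methylated arrays lay above both unmethylated ones in 91 8-mers and below them in 3, against 30.5% and 29.1% of all 8-mers. The highest differences among the 160 were those of A-type 8-mers. The A-type median difference was 1.21, against 1.99 for the 48 8-mers with T after the half-site and 0.93 for the 48 with C. Of the 48 with T, 0 were called. Among them, the difference was 7.03 for TGACGtca (SE 11.1) and 4.30 for TGACGtaa (SE 10.7). These SEs take in the variance trend. The SD between arrays was 0.431 on methylated and 2.58 on unmethylated DNA for TGACGtca, and 2.96 and 4.09 for TGACGtaa. By limma without the trend the adjusted p was 0.00152 for TGACGtca and 0.0925 for TGACGtaa. The 0 calls thus do not show that the 8-mers with T did not rise. TGACGaaa gave 12.7 and 14.8 on methylated DNA, against 7.03 and 9.94 on unmethylated DNA (difference 5.29, SE 1.54, adjusted p = 0.0202). TGACGaca gave 11.2 and 11.1, against 5.47 and 7.16 (difference 4.85, SE 0.972, adjusted p = 0.00214), and aTGACGac gave 5.95 and 7.92, against 2.30 and 3.13 (difference 4.22, SE 0.873, adjusted p = 0.0027). None of these 3 A-type 8-mers overlapped between methylated and unmethylated arrays. In signal over the array median, TGACGaaa lay at 6.62 times on methylated and 2.10 times on unmethylated DNA. Its rank among all 8-mers did not rise, at 20 on methylated and 18 on unmethylated DNA. The methylated CREB1(A297V) arrays also had a wider signal range. Their strongest 8-mer had a log2 ratio to the median of 4.93 and 5.61, against 2.79 and 2.68 on the unmethylated arrays. Whether the signal of TGACGaaa rose beyond this wider range was not tested.

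The rise of TGACGaca held whichever single array was left out, as did those of ccTGACGa and atTGACGa, both named after their values were seen and near the typical level, at a mean Z of 1.49 and 1.73 on methylated DNA. The call for TGACGaaa was lost without unmethylated array 1 or methylated array 2, and its difference was -0.30 after normexp background correction and -0.46 after quantile normalization. The single G-type call, ccTGACGg, lay below the array median on both kinds of DNA, at a mean of -0.698 and -1.46. The count was 5 without either methylated CREB1(A297V) array, 33 without unmethylated array 2, and 33 and 35 without CREB1 array 1 and 2. Without unmethylated array 1 it was 7 higher and 3 lower. It was 81 higher and 1 lower on the log2 signal scale and 5 higher with the authors' deposited Z-scores. The methylated CREB1(A297V) arrays placed the probes at other positions of the slide than all other arrays did, which cannot be told apart from methylation here.

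On methylated DNA CEBPB(V285A) still gave many of the 8-mers higher Z-scores than CREB1(A297V). The methylated CREB1(A297V) arrays placed the probes at other positions than those of CEBPB(V285A), so placement and protein cannot be told apart here. By limma 68 of the 160 were higher, against 6.75% of all 8-mers, and 2 were lower, against 5.49%. Both CEBPB(V285A) arrays lay above both CREB1(A297V) arrays in 134 8-mers and below them in 6, against 35.6% and 28.1% of all 8-mers. The 68 were 27 terminal, 15 A-type and 26 G-type 8-mers. The Z of agaTGACG was 7.48 and 7.97 with CEBPB(V285A), against 2.76 and 2.60 with CREB1(A297V) (difference 5.05, SE 1.1, adjusted p = 0.00514). For gtaTGACG it was 8.15 and 7.55, against 3.54 and 3.78 (difference 4.19, SE 1.01, adjusted p = 0.0104), and for ggaTGACG 7.83 and 8.13, against 5.56 and 2.26 (difference 4.07, SE 1.14, adjusted p = 0.0246). All 3 have A before the half-site, but the calls were not particular to A. Of 16 terminal 8-mers each, 8 with A, 11 with C, 4 with G and 4 with T there were called higher. The 2 lower 8-mers were TGACGaca, at 5.46 and 5.42 with CEBPB(V285A) against 11.2 and 11.1 with CREB1(A297V) (difference -5.73, SE 0.972, adjusted p = 0.000698), and TGACGaaa, at 7.56 and 8.55 against 12.7 and 14.8 (difference -5.72, SE 1.54, adjusted p = 0.0203). The call for TGACGaca held whichever array was left out, as did 5 of the 68 higher calls, named after their values were seen: ggcTGACG, TGACGacc, cTGACGag, TGACGaga and TGACGgga. The count of all calls was 14 and 19 without methylated CEBPB(V285A) array 1 and 2, and 21 and 9 without methylated CREB1(A297V) array 1 and 2. On the log2 signal scale 133 were called higher and 2 lower. For the G-type pair the order of the proteins was the opposite. TGACGgaa gave 4.33 and 4.86 with CEBPB(V285A), against 2.34 and 2.61 with CREB1(A297V) (difference 2.12, SE 0.487, adjusted p = 0.00759), and TGACGgca gave 2.37 and 3.17, against 1.17 and 1.32 (difference 1.53, SE 0.478, adjusted p = 0.0424).

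The methylation differences of both proteins were then set against each other as a contrast of their own. The methylation difference of CEBPB(V285A) was below that of CREB1(A297V) for 45 of the 160 by limma and above it for 0, against 1.64% below among all 8-mers. It was also below for 13 of the 48 8-mers with T after the half-site and 21 of the 48 with C. The contrast was -10.87 for tgaTGACG (SE 2.78, adjusted p = 0.0403), which had 8.71 and 8.63 on methylated and 17.5 and 13.6 on unmethylated DNA with CEBPB(V285A), and 9.37 and 7.63 on methylated and 3.11 and 5.92 on unmethylated DNA with CREB1(A297V). For this 8-mer the arrays of both proteins overlapped on methylated DNA and not on unmethylated DNA. The contrast was -8.07 for ctaTGACG (SE 1.67, adjusted p = 0.0201) and -7.68 for ccgTGACG (SE 1.68, adjusted p = 0.0219). It was -6.31 for TGACGaca (SE 1.37, adjusted p = 0.0219), where CEBPB(V285A) gave 5.46 and 5.42 on methylated and 6.67 and 7.13 on unmethylated DNA, while CREB1(A297V) gave 11.2 and 11.1, against 5.47 and 7.16. None of the 45 calls held under the loss of every single array. Without array 1 of CEBPB(V285A), unmethylated or methylated, 0 calls were made, and 3 without methylated array 2. There were 2 and 1 calls without methylated CREB1(A297V) array 1 and 2, and 23 without unmethylated CEBPB(V285A) array 2 or unmethylated CREB1(A297V) array 1. There were 71 without unmethylated CREB1(A297V) array 2, and 70 and 73 without CREB1 array 1 and 2.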

How the data were processed

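Protein binding was measured on 10 arrays, 2 for each of 5 groups taken from the sample titles. Per the file headers, the deposited table of each array holds the median signal intensity and median background intensity of each of 40330 spots, linear and not background-subtracted; scanner settings are not given in the sources used here. A further table from the authors gives 1 deposited score (a Z-score) per 8-mer and array, computed by steps that are not given in the sources used here; it served as an alternative. Log2 signals were lowered by the median of a window of 15 by 15 spots, and each 8-mer took the median of its probes (at least 8), centred and scaled within the array. Differences were tested in limma 3.58.1 (R 4.3.3; lmFit, eBayes with a variance trend; 1 coefficient per group, all 10 arrays), two-sided, with Benjamini-Hochberg adjustment over 32896 8-mers and 7 comparisons each adjusted alone; scripts ran in Python 3.11.15. The scoring and the test were checked on simulated data.

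Named 8-mers are the 3 highest and the lowest of each group, up to 3 called 8-mers with the highest and up to 3 with the lowest difference in each comparison, and a panel of A-type and G-type counterparts of the CRE and its AA-ending form. The 8-mers and these lists were chosen with earlier results of these data known. Alternatives covered background correction, scale, quantile normalization, spatial correction, averaging over probes, dim probes, the variance trend, a replicate block and each array left out. Deviations of same-numbered arrays correlated between -0.213 and 0.333 across groups, without a common sign, so the numbers were not taken as pairs. The highest, 0.333, was that of CREB1 with unmethylated CREB1(A297V), so an effect shared by their same-numbered arrays is not excluded. The 8-mers are designed sequences and have no position in a genome.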

Additional observations from a re-analysis of the deposited data

Results flagged for a closer look

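Of the 45 8-mers among the 160 whose difference between methylated and unmethylated DNA was lower in CEBPB(V285A) than in CREB1(A297V), against 1.64% of all 8-mers, 7 are among those named above by the naming rule. They were called by the contrast of both differences in limma (CEBPB(V285A) minus CREB1(A297V), adjusted p below 0.05). The contrast was -10.87 for tgaTGACG, -8.07 for ctaTGACG, -7.68 for ccgTGACG, -6.31 for TGACGaca, -5.61 for cgcTGACG, -4.72 for aTGACGac and -2.42 for gcTGACGa. All 7 are negative, and all 7 calls were lost when some single array was left out. Array identifier and probe placement differ between methylated and unmethylated CREB1(A297V) arrays, and their part in these values was not tested.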

How the results depend on the processing

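Counts of called 8-mers among the 160 were recomputed under each alternative. For CREB1(A297V) against CREB1 and for CEBPB(V285A) against CREB1(A297V), both on unmethylated DNA, each alternative stayed within 1.5 times the reported 157 and 153, with 128 to 157 and 130 to 155 calls when single arrays were left out. For CEBPB(V285A) against CREB1 the 8 calls became 23 with the authors' deposited Z-scores, 48 after normexp background correction, 70 on the log2 signal scale, 3 with a trimmed mean over probes and 5 without probes below background, and 0 to 17 when single arrays were left out. After quantile normalization they were 2 higher and 6 lower, and without probes holding TGACGT 5 higher and 4 lower. For methylation with CEBPB(V285A) the 50 became 11 after normexp and 90 with a trimmed mean, and 4 to 75 without single arrays. For methylation with CREB1(A297V) the 18 became 5 with the authors' scores, 7 after normexp, 7 with signal over background, 7 without spatial correction, 82 on the log2 scale and 36 after quantile normalization, and 5 to 35 without single arrays. For both proteins on methylated DNA the 70 became 46 with signal over background, 44 without spatial correction and 135 on the log2 scale, and 9 to 84 without single arrays. For the contrast of methylation differences the 45 became 6 after normexp and 78 with a trimmed mean, and 0 to 73 without single arrays. The cause of these shifts was not tested.

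Of 32 called differences of named 8-mers, the recomputed values kept direction and call 533 times, lost the call 135 times and turned sign 4 times: cgcTGACG for CEBPB(V285A) against CREB1 (-0.71 after normexp), tcTGACGg for the same (0.0287 without spatial correction), and TGACGaaa for methylation with CREB1(A297V) (-0.30 after normexp, -0.46 after quantile normalization). The differences of TGACGaaa and TGACGaca that were not called did not keep their sign throughout. Their recomputed values kept the sign without a call 64 times, turned sign 18 times and were called with the sign kept 2 times. Those that turned sign are given next. For CREB1(A297V) minus CREB1, TGACGaaa was 5.70 after quantile normalization, 1.16 without spatial correction, 0.56 with a trimmed mean, 0.0407 without probes below background, 0.74 without CREB1 array 2 and 1.29 without CREB1(A297V) array 1, within a range of -1.61 to 1.29 over single arrays left out. TGACGaca was 2.96 after quantile normalization and 0.46 without spatial correction. For CEBPB(V285A) minus CREB1(A297V), TGACGaaa was -2.92 after normexp, -6.74 after quantile normalization, -1.04 without spatial correction, -0.65 with a trimmed mean, -1.0 without CEBPB(V285A) array 1 and -1.26 without CREB1(A297V) array 1, within a range of -1.26 to 1.64. TGACGaca was -1.08 after normexp, -4.27 after quantile normalization, -0.21 with a trimmed mean and -0.25 without CREB1(A297V) array 1, within a range of -0.25 to 1.43.

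With the replicate number as a block, the counts were 9, 157, 154, 54, 22, 71 and 52 in the 7 comparisons, in the order of their first mention. With the unmethylated CEBPB(V285A) arrays crossed, an alternative chosen after seeing the data, the block gave 12 calls against CREB1 and 154 against CREB1(A297V). Precision is limited by 2 arrays per group, by the low signal range of unmethylated CREB1(A297V) and by signal over background down to 1.79.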
